A study of Anas platyrhynchos with 2 samples.

Results

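Autosomes of the duck Anas platyrhynchos, here of the Fujian Longyan Shan-ma breed, are of very unequal size, and 8 of the small ones are densely packed with genes. These gene-dense small microchromosomes are chromosomes 17, 23, 24, 26, 27, 28, 29 and 34 of the study's own assembly. They were chosen by 2 limits: a span under 10 Mb, taken as the end of the last gene on the sequence, and at least 10 genes per Mb of span in the count tables. They hold 1423 of the 11383 genes in the tables, and are set beside the 8941 genes of the 23 autosomes of 10 Mb or more. Expression was measured by RNA-seq in 2 libraries, 1 per label, with no replicates. The label of library B names 9 organs: brain, eye, heart, kidney, lung, muscle, ovary, skin and spleen. Its counts sum to 41792653 reads. The label of library A names 5 organs: blood, intestine, liver, pancreas and stomach. Its counts sum to 20047449 reads. The series text instead tells of an adult female and an adult male, with testis in place of ovary in the male, whose tissues were pooled in equal amounts of RNA. The labels name no sex or animal for either library, though ovary, on the label of library B, is a female organ. The alignment names in the file headers number the libraries differently from the library names on the labels, so which organ label belongs to which counts rests on the pairing in the deposit.

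Bird karyotypes combine a few large macrochromosomes with many microchromosomes. In chicken, microchromosomes are known for a high gene density, short introns, a high GC content and a high rate of recombination. A chromosome can carry many genes per Mb because the genes themselves are short, because they lie close together, or both. The gene IDs of the tables matched 0 of 26024 genes in the reference table of another duck assembly, so neither the function of a gene nor the organs on the labels could be checked against known markers. Genes are described here by position on the study's assembly and by structure.

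With 1 library per label there is no test between the libraries, and genes of 1 chromosome are not replicates of it. Values are therefore given as medians with the quartiles over genes, and for each comparison the 8 chromosomes are set beside the range over the 23 larger autosomes. The mates of a read pair were counted separately, so intervals cover counting error only and are too narrow. Most genes of the set were deeply covered: the median gene had 1326 reads in library B and 617 in library A. At least 1 library had 10 or more reads for 1404 of the 1423 genes. Although the labels name no organ in common, the libraries were nearly alike: over these 1404 genes Spearman's rho of their levels was 0.997, and 0.998 over 8872 genes of the larger autosomes. The labelled organ contrast is therefore not visible as a broad difference, and B and A are used as names of libraries. Equal pooling of all tissues, as in the series text, and separate organ sets, as on the labels, were not tested against each other.

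The 8 chromosomes differed among themselves in size and density, which the choice used and which are given as a description. Chromosome 34 was the shortest and densest, with 152 genes on 3.21 Mb (47.4 per Mb). Chromosomes 26 and 29 had 212 genes each, at 36.6 and 36.3 per Mb. Chromosome 23 was the sparsest of the set, with 143 genes at 18.1 per Mb, and chromosome 27 the longest at 9.36 Mb, with 195 genes. Chromosome 24 had 197 genes on 7.50 Mb, chromosome 28 had 223 on 8.65 Mb, and chromosome 17 had 89 on 3.90 Mb. Just outside the limits lay chromosome 25, which spans 10.03 Mb with 10.3 genes per Mb, chromosome 22, at 10.6 Mb and 15.5 per Mb, and chromosome 38, under 10 Mb but with 6.77 per Mb. The median level was 11.04 RPKM on chromosome 27 and 16.04 RPKM on chromosome 23, against 8.76 RPKM on chromosome 25, 11.1 RPKM on chromosome 22 and 2.89 RPKM on chromosome 38. The gap in density between the set and the other small autosomes was wide, so that any limit between 6.77 and 18.1 genes per Mb selects the same 8 chromosomes.

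The set contributed reads roughly in proportion to its genes and far above its share of the sequence. It held 11.70% of counted reads in library B (95% Clopper-Pearson interval 11.69 to 11.71) and 11.56% in library A (11.54 to 11.57), with 12.5% of the genes in the tables. Per Mb of span it gave 2243 CPM (counts after division by library size) in library B and 2215 in library A, against 806 and 809 on the autosomes of 10 Mb or more. Reads per Mb were thus 2.78 times those of the larger autosomes in library B and 2.74 times in library A, beside 3.15 times as many genes per Mb and 2.26 times as much exon sequence. The lowest of the 8 was chromosome 17, with 1579 CPM per Mb in library B and 1515 in library A. The highest was chromosome 34, with 3954 and 3790. Of the larger autosomes, chromosome 14 reached 2246 and 2302 CPM per Mb, above 5 of the 8, so the groups overlap through this chromosome alone. Its highest gene had 10884 RPKM. The next highest larger autosome, chromosome 16, had 1504 CPM per Mb in library B and 1496 in library A, below chromosome 17.

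A single gene held more reads than all other genes of chromosome 23 together. It lies on the plus strand at 4983040 to 4987846, has 6 exons and 939 bp of exon, and took 1.494% of all reads in library B (1.490 to 1.497) and 1.582% in library A (1.577 to 1.588). Of all reads of the set this gene took 12.8% in library B and 13.7% in library A. It was the only gene of the set among the 10 most abundant in the tables. Chromosome 23 held 23.0% of the set's reads in library B and 23.8% in library A, with 10.05% of its genes. Without this gene the set gave 1956 CPM per Mb in library B and 1912 in library A. Its share of counted reads was then 10.2% in library B and 9.97% in library A. With the gene the share was 11.70% and 11.56%, also below its 12.5% of the genes. The most abundant gene of the larger autosomes, which was not taken out, held 9.70% of their reads in library B and 9.75% in library A. The set, with 12.5% of the genes in the tables, held 12 of the 100 most abundant genes and 77 of the 500 most abundant.

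Gene level is given as RPKM, CPM per kilobase of exon, averaged over both libraries. The median gene of the set had 11.1 RPKM (quartiles 4.21 and 30.7) against 9.56 RPKM (3.83 and 22.5) on the autosomes of 10 Mb or more, a ratio of 1.16. The ratio was 1.20 in library B and 1.15 in library A. The shift was larger at the upper end, where the 90th percentile was 78.1 RPKM in the set and 54.4 RPKM on the larger autosomes. Of the genes in the set 7.38% had at least 100 RPKM, against 5.61%, and 13.6% belonged to the tenth of all genes with the highest level, against 9.70%. At the low end the groups were close: 94.0% of the genes in the set and 94.1% of those on the larger autosomes had at least 1 RPKM. The distributions overlap over most of their range.

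Chromosomes of the set did not share 1 level. Chromosome 23 had the highest median, 16.8 RPKM in library B and 16.02 RPKM in library A, followed by chromosome 26 (13.9 and 13.5 RPKM) and chromosome 24 (13.4 and 12.6 RPKM). These 3 lay above every autosome of 10 Mb or more, whose medians over both libraries ran from 8.15 to 12.3 RPKM. Chromosomes 27, 29, 34 and 28 had 11.04, 10.6, 10.4 and 10.03 RPKM over both libraries, within that range. Chromosome 17 had 6.78 RPKM in library B and 5.61 RPKM in library A, below every larger autosome. By chromosome, level did not follow gene density within the set, since the sparsest, chromosome 23, was the highest, and the densest, chromosome 34, came sixth. The span of chromosome 23 includes 2.29 Mb without a gene of the tables before its last gene, which had no reads. Over the 1423 genes, Spearman's rho of level with the number of genes in the same 1 Mb window was 0.12, a weak value. Within each chromosome the quartiles spanned a wider range than the 8 medians did.

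**Figure D1:**
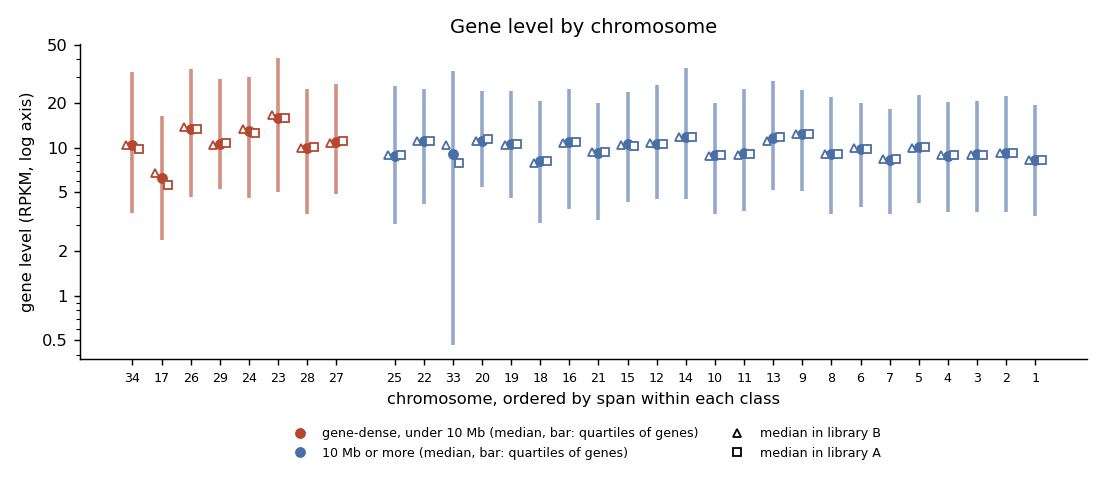
Gene level in RPKM (log axis) for the 8 gene-dense small autosomes and the 23 autosomes of 10 Mb or more, ordered by span within each class. Filled points are medians over genes of the mean of both libraries, bars run between the quartiles, and open symbols are the medians in library B and library A; chromosomes 23, 24 and 26 sit above and chromosome 17 below all larger autosomes, while the quartile bars overlap throughout.

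Per gene, not per kilobase, the order was the reverse. The median gene of the set had 31.6 CPM in library B and 30.9 CPM in library A, against 38.2 and 38.1 CPM on the larger autosomes. The genes of the set were shorter in exon, with a median of 2413 bp against 3444 bp. Over all genes of the set the rank correlation of level per kilobase with exon length was -0.20 (Spearman, 1423 genes), and -0.24 over the 8941 genes of the larger autosomes. Genes are not independent replicates, and level per kilobase has exon length in its denominator.

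Within classes of exon length the level of the set was not uniformly higher. Of its genes 24.9% had under 1500 bp of exon, against 12.3% on the larger autosomes, and such genes had the highest medians in both groups. Their median was 20.3 RPKM in the set and 21.0 RPKM on the larger autosomes. From 1500 to under 2500 bp it was 11.3 against 14.4 RPKM, lower in the set. From 2500 to under 4000 bp it was 10.4 against 10.5 RPKM. The set was higher from 4000 to under 6000 bp, with 10.3 against 8.67 RPKM, and at 6000 bp or more, with 6.73 against 6.41 RPKM. The higher overall median thus stood beside a larger share of short genes, and the part of exon length in it was not tested further.

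**Figure D2:**
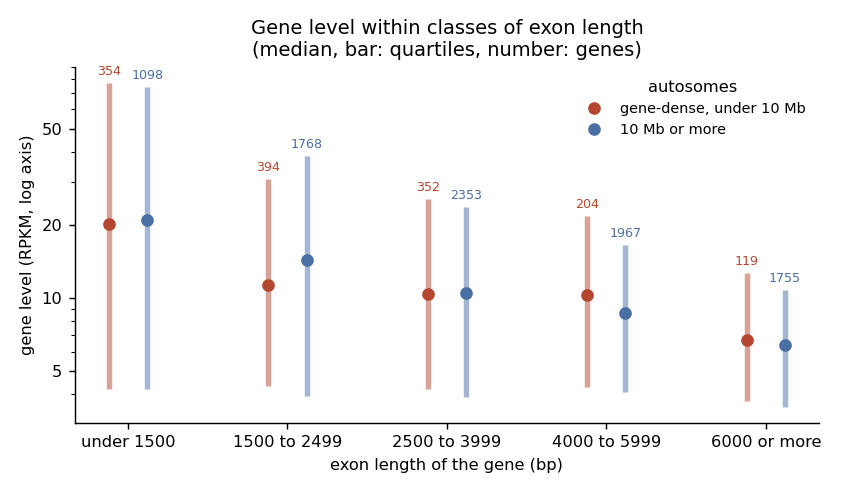
Gene level in RPKM (log axis) in 5 classes of exon length, for the gene-dense small autosomes beside the autosomes of 10 Mb or more. Points are medians, bars run between the quartiles and numbers count genes; both groups decline from about 20.3 and 21.0 RPKM in the shortest class to 6.73 and 6.41 RPKM in the longest, and the order of the groups changes between classes.

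Classed by exon number the set had the higher median in each class. It had 9.02 against 7.18 RPKM for genes with 2 to 4 exons and 15.9 against 11.9 RPKM for those with 5 to 8 exons. With 9 to 16 exons the medians were 11.97 and 10.8 RPKM, and with 17 or more 9.34 and 8.41 RPKM. The 12 single-exon genes of the set had 5.79 RPKM, against 2.65 RPKM for the 117 on the larger autosomes, with quartiles of 0.50 and 12.3 RPKM in the set. Exon length was not held fixed in these classes.

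Introns set the genes of the 8 chromosomes apart more than exons did. A gene of the set had a median of 8 exons (quartiles 5 and 13) against 9 (5 and 16) on the larger autosomes, and genes with 17 or more exons made up 16.4% against 22.7%. Medians per chromosome were 7 to 9 exons in the set and 8 to 12 on the larger autosomes, so they overlap. The single exon was alike in median length, with 133 bp in the set and 134 bp on the larger autosomes. Exon length per gene did differ, with a median of 2413 bp against 3444 bp. That is a ratio of 0.70, beside 0.37 for the mean intron. The gene with most exons, on the minus strand of chromosome 24 at 762295 to 898336, had 100 exons over 136042 bp and 13.8 RPKM in library B and 13.5 RPKM in library A.

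The typical intron of the set was 404 bp long (quartiles 146 and 872 bp, 13512 introns), against 990 bp (446 and 2369 bp, 100169 introns) on the larger autosomes. Averaged within each gene, the mean intron had a median of 635 bp against 1722 bp, a ratio of 0.37. Every one of the 8 chromosomes, from 500 bp on chromosome 26 to 902 bp on chromosome 27, lay below the median over the larger autosomes, 1534 bp. Chromosome 33, of 10.8 Mb and with only 78 genes in the tables, had the shortest introns among the larger autosomes, at 589 bp. Of the 8 chromosomes 3 lay below it. These values describe the annotated genes, and intron size is not fully independent of the density that chose the chromosomes.

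**Figure D3:**
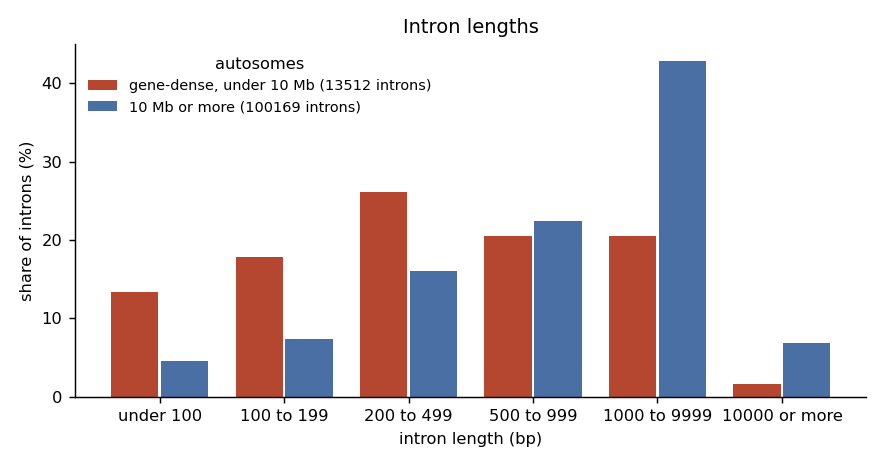
Share of introns, in percent, in 6 classes of intron length for the gene-dense small autosomes beside the autosomes of 10 Mb or more. Bars start at 0; the set has 13.3% of its introns under 100 bp against 4.59%, and 1.60% of 10 kb or more against 6.81%.

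Introns under 200 bp were frequent in the set. They made up 31.2% of introns in the set and 11.9% on the larger autosomes. By chromosome the share was 44.2% on chromosome 34, 43.2% on chromosome 17, 41.6% on chromosome 26 and 21.4% on chromosome 27, against 8.30 to 39.9% on the larger autosomes, where chromosome 33 was again the highest. Introns of 10 kb or more were rare in the set, at 1.60% against 6.81%. In the set 22.2% of the length between gene starts and ends was exon, against 9.64% on the larger autosomes.

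The first intron kept a larger size than the rest. In genes with at least 4 exons, the first intron in the direction of transcription had a median of 1101 bp in the set and 2212 bp on the larger autosomes. Inner introns had 364 bp in the set and 949 bp on the larger autosomes, and last introns 361 and 959 bp. The first intron was thus 3.02 times as long as the inner ones in the set and 2.33 times on the larger autosomes. It was the longest intron of its gene in 51.2% of 1191 genes of the set and in 38.5% of 7815 genes on the larger autosomes. If each intron of a gene were equally likely to be the longest, these shares would be 14.0% and 12.9%.

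Short introns went with only small differences in level. In the set, genes whose mean intron was under 250 bp had a median of 11.4 RPKM, those of 500 to under 1000 bp had 12.9 RPKM and those of 2000 to under 4000 bp had 11.1 RPKM. The 75 genes of 4000 bp or more had 5.54 RPKM. On the larger autosomes the same classes had 12.5, 12.3, 10.2 and, for 2183 genes, 6.97 RPKM. The rank correlation of mean intron length with level was -0.08 over 1411 genes of the set and -0.15 over 8824 genes of the larger autosomes, both weak. Within classes of intron length the ratio of medians was 1.0 from 250 to under 500 bp and 1.05 from 500 to under 1000 bp. In the other 4 classes it lay between 0.795 and 1.14.

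Spacing follows from the density that chose the chromosomes and is given as a description. From the end of a gene to the start of the next gene in the table the median distance was 3958 bp in the set and 14141 bp on the larger autosomes. For pairs with consecutive ID numbers, between which no numbered gene is left out, it was 2214 bp and 8013 bp. The tables hold 63.3% of the ID numbers of the set and 65.2% of those of the larger autosomes, so distances over all numbered genes may be shorter in both. Chromosome 26 was the tightest, with a median of 2124 bp and 33.2% of neighbours under 1 kb apart. In the whole set 23.4% of neighbours lay under 1 kb apart, against 12.5% on the larger autosomes. Genes nonetheless covered a like share of the sequence, 36.2% of the span in the set and 37.0% on the larger autosomes. From start to end a gene spanned a median of 7321 bp in the set and 19293 bp on the larger autosomes.

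Neighbours on the same strand were somewhat more frequent in the set, which the choice of chromosomes did not use. They made up 58.0% of 1415 neighbouring pairs, against 51.8% of 8918 pairs on the larger autosomes. Divergent pairs, with starts facing each other, and convergent pairs made up 21.0% each in the set and 24.1% each on the larger autosomes. On 3 of the 8 chromosomes the share was high, with 65.9% on chromosome 26, 64.4% on chromosome 28 and 62.8% on chromosome 24, above the highest larger autosome at 62.6%. On the other 5 it lay between 47.7% on chromosome 17 and 55.7% on chromosome 27. The closest divergent pair lay on chromosome 29, with 46 bp between the gene ending at 3749504 and the gene starting at 3749551. The gene on the minus strand had 27.1 RPKM in library B and 27.1 RPKM in library A, and its partner 7.30 and 7.69 RPKM.

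Levels of neighbours were only weakly related. Over neighbouring pairs, Spearman's rho of the 2 levels was 0.10 over 1415 pairs of the set and 0.09 over 8918 pairs of the larger autosomes. In the set it was 0.17 for the 821 pairs on the same strand, 0.02 for 297 divergent pairs and 0.01 for 297 convergent pairs. On the larger autosomes it was 0.11, 0.06 and 0.07. Strand was not used in counting, per the recorded command, and these weak values are no more than a description.

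Dense stretches also occur on large chromosomes, and how near genes there came to the set in level and structure depended on the limit. On the autosomes of 10 Mb or more, 5904 genes lay in windows of 1 Mb with at least 10 genes in the table. The set, with 11.1 RPKM (quartiles 4.21 and 30.7), was close to their median of 10.7 RPKM (4.28 and 25.3), while the 3037 genes in sparser windows had 7.57 RPKM. The order turned where denser windows were required: the set, taken whole, was below the 11.4 RPKM of windows with at least 15 genes, a ratio of 0.97. Genes of the set that lay in such windows had 11.2 RPKM. Mean introns had a median of 635 bp in the set against 1381 bp in the windows with at least 10 genes, and exon length was 2413 bp against 3205 bp. In windows with 20 to 39 genes the set had 10.2 RPKM and mean introns of 734 bp, against 11.9 RPKM and 936 bp, with a median of 9 exons in both groups. In windows with 40 or more genes it had 13.2 RPKM and 490 bp over 580 genes, against 9.76 RPKM and 681 bp over 219 genes in 5 windows of the larger autosomes.

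Among the 32 windows of the set with at least 20 genes the median level ran from 5.36 RPKM, on chromosome 17, to 30.9 RPKM, and the next highest had 18.7 RPKM. The highest was a stretch of chromosome 23 at 4000001 to 5000000 with 60 genes, which was singled out after its values were seen. Its genes had a median of 31.3 RPKM in library B and 30.3 RPKM in library A, against 12.2 and 12.3 RPKM for the other 83 genes of the chromosome. Of the 60 genes 43 had at least 10 RPKM, and 14 belonged to the tenth of all genes with the highest level. The abundant gene that starts at 4983040 is 1 of the 60. Mean introns there had a median of 426 bp, against 756 bp on the rest of the chromosome, and exon length was 2124 bp against 3066 bp.

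The most abundant genes per kilobase on each chromosome had short exon sequences and were nearly alike in both libraries. On chromosome 23 the gene at 4983040 to 4987846 had 15852 RPKM in library B and 16909 RPKM in library A. Next came a minus-strand gene of chromosome 28, at 1831115 to 1833293, with 5 exons and 546 bp of exon, at 1636 and 1660 RPKM. Chromosomes 17, 27, 34 and 29 had their highest gene at 1076, 1047, 905 and 883 RPKM in library B and at 1073, 1093, 905 and 904 RPKM in library A. On chromosome 24 it had 761 RPKM in library B and 802 RPKM in library A, and on chromosome 26 it had 457 and 441 RPKM. The highest gene of chromosome 23 was about an order of magnitude above the others. All 8 had between 3 and 11 exons and at most 1533 bp of exon.

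By reads, without division by exon length, the order was different. After the gene on chromosome 23 came one of 15 exons at 3341924 to 3350847 on chromosome 29, with 1681 CPM in library B and 1679 CPM in library A. The gene of 11 exons at 5775422 to 5778854 on chromosome 27 had 1605 and 1676 CPM. The other members of the leading 10 had 1506 to 881 CPM in library B and 1477 to 879 CPM in library A, and none of the 10 differed by more than 1.07-fold between the libraries. They lay on chromosomes 17, 23, 27, 28 and 34, so that only chromosomes 24 and 26 had no gene among the 10.

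Few genes of the set differed between the libraries. A ratio of at least 2-fold towards library B was found for 6 of 1404 genes tested (0.427%), where 0.489% of all 11256 genes tested had one. Towards library A there were 2 such genes (0.142%), against 0.267% of all. These shares are near or below the background. At 4-fold there was 1 gene towards library B (0.0712%, against 0.0888% of all) and none towards library A (0.0444% of all). The gene past 4-fold, of 2 exons on chromosome 27 at 7861405 to 7863037, had 20 reads in library B and 0 in library A, where a count of 0 allows up to 3. The 2 genes higher in library A, both on chromosome 28, had 12 reads each there and 10 and 8 reads in library B.

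Where the higher library had 100 reads or more, Apl_24G0001900, on the minus strand of chromosome 24 at 4114780 to 4117649 with 2 exons, had the largest ratio towards library B. It had 113 reads (2.69 CPM) in library B and 20 reads (1.0 CPM) in library A. The ratio of B over A was 2.69, with a 95% exact conditional interval of 1.66 to 4.57 by reads and 1.35 to 5.87 by read pairs. Apl_26G0000980, a plus-strand gene of 2 exons on chromosome 26 at 996759 to 1000174, had 341 reads (8.13 CPM) in library B and 72 reads (3.604 CPM) in library A. Its ratio was 2.26, with intervals of 1.75 to 2.95 by reads and 1.56 to 3.32 by pairs. Towards library A no gene with that many reads reached 2-fold. Apl_26G0002470, a minus-strand gene of 2 exons on chromosome 26 at 2287081 to 2288047, had 290 reads (6.92 CPM) in library B and 186 reads (9.31 CPM) in library A. Its ratio of B over A was 0.743 (0.616 to 0.898 by reads, 0.569 to 0.974 by pairs). Apl_27G0001940, a plus-strand gene of 4 exons on chromosome 27 at 6184614 to 6189872, had 322 reads (7.68 CPM) in library B and 201 reads (10.06 CPM) in library A. Its ratio was 0.763 (0.638 to 0.915 by reads, 0.594 to 0.995 by pairs). The 4 genes were picked as the extremes of the set, so their intervals, which cover counting error only, are no test.

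The set as a whole was tilted slightly towards library B. The log2 ratio, B over A, had a median of 0.04 (quartiles -0.03 and 0.12) in the set and -0.01 (-0.07 and 0.07) on the larger autosomes, which is a 1.03-fold difference between the medians. A log2 ratio above 0 was found for 62.3% of the 1404 genes, where 49.8% of all genes tested had one, and for 47.4% of those on the larger autosomes. All 8 chromosome medians were above 0, from 0.01 on chromosome 24 to 0.06 on chromosome 34. Scaling by total counts or by DESeq2 size factors shifts all genes by nearly 1 factor, here upwards. These medians could therefore not fall below 0 under either scaling. Of the 23 larger autosomes 11 were above 0 as well, 18 with total counts and 12 with DESeq2 size factors. Medians of the larger autosomes ran from -0.03 to 0.11. The highest of them was chromosome 33, and 6 of the 8 lay above all others. A positive ratio was not particular to the set: the 167 genes tested on the other small autosomes had a median of 0.08, with 64.1% above 0. Across the 31 chromosomes of the set and the larger autosomes the median log2 ratio was higher on shorter ones (Spearman's rho with span -0.885), a description over chromosomes that share the same 2 libraries. The spread of single genes was far larger than the shift, with a median absolute deviation (multiplied to match an SD) of 0.12.

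**Figure D4:**
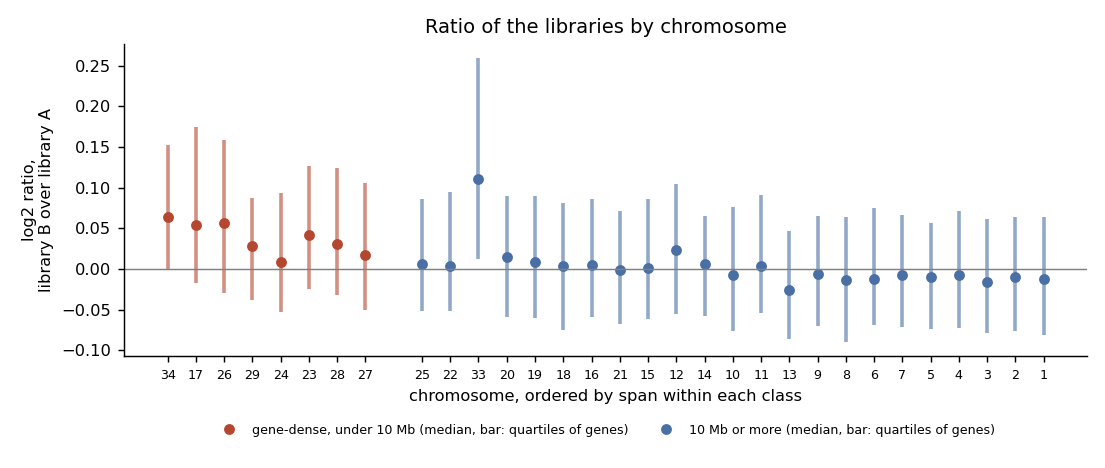
Log2 ratio of the libraries (B over A) by chromosome, with genes of at least 10 reads in at least 1 library. Points are medians over genes and bars run between the quartiles; all 8 gene-dense small autosomes have medians between 0.01 and 0.06, and the larger autosomes lie between -0.03 and 0.11.

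The set had the higher median ratio in every class of exon length and in every class of level from 1 RPKM up. In the set the median log2 ratio was 0.08 for genes of 1 to 5 RPKM, 0.05 from 5 to 10 RPKM, 0.03 from 10 to 20 RPKM, 0.03 from 20 to 50 RPKM and 0.02 at 50 RPKM or more. On the larger autosomes these classes had 0.01, -0.01, -0.01, -0.01 and -0.02. Under 1 RPKM the order was the other way, with 0.04 for 67 genes of the set against 0.05 for 462 genes. By exon length the medians of the set ran from 0.02 to 0.05 and those of the larger autosomes from -0.01 to -0.002. On the larger autosomes, genes whose mean intron was under 500 bp had 0.03, close to the 0.04 of such genes in the set, whereas longer introns had values below 0 there and 0.02 to 0.04 in the set. Base composition was not measured here, and its part in the tilt was not tested.

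The share of structural copies in the set was near that over all genes. A gene was taken as a structural copy where it had at least 4 exons and the lengths of all its inner exons recurred in another gene. For a gene of 4 exons only 2 lengths have to match, which unrelated genes may also share. Such genes made up 5.13% of the set, 73 genes, against 3.15% on the larger autosomes, 18.6% on the other small autosomes and 4.16% of all genes. Chromosome 34 had 18 of them, 11.8% of its genes, chromosome 26 had 13 and the other 6 had 4 to 9 each. On chromosome 33, among the larger autosomes, the share was 12.8%, so the groups overlap. The tables hold only 78 genes of chromosome 33, 20.7% of its ID numbers. The next highest share there was 8.38%, on chromosome 8. For 30 of the 73 all partners lay on the same chromosome, 14 of these on chromosome 34. Copies had a median of 16.96 RPKM and the other genes of the set 11.1 RPKM, beside 12.9 and 9.47 RPKM on the larger autosomes and 5.61 and 2.33 RPKM on the other small ones. Sequence was not compared, so it is uncertain which of these genes are true copies. Under the recorded command multi-mapping reads were left uncounted, so the levels of copies are uncertain too.

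A stretch of 156 kb on chromosome 34, at 318814 to 475097, held 10 neighbouring genes of 9 exons each, 9 of them structural copies. The 9 formed separate groups of 5, 2 and 2 genes, each with its own inner exon lengths. This stretch was chosen after its values were seen. The exon lengths of the 10 genes ran from 1890 to 2840 bp, and 9 lay on the plus strand. In order along the chromosome they had 82.4, 198.8, 103, 16.2, 35.2, 87.3, 21.0, 2.20, 2.45 and 277 RPKM in library B. In library A they had 75.6, 191, 105, 17.7, 32.4, 86.1, 19.2, 2.41, 2.88 and 281 RPKM. Genes of the same exon number within a short stretch thus differed over 100-fold in level, and their order by level was the same in both libraries. Multi-mapping reads were left uncounted, so the levels of the copies are uncertain. Neighbours could be far apart: the gene at 442821 to 450377 had 2.45 RPKM in library B, and the next in the tables, on the minus strand at 465772 to 475097, had 277 RPKM. Together the 10 genes held 1.89% of the set's reads in library B and 1.87% in library A, with 6 ID numbers between them that are not in the tables.

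**Figure D5:**
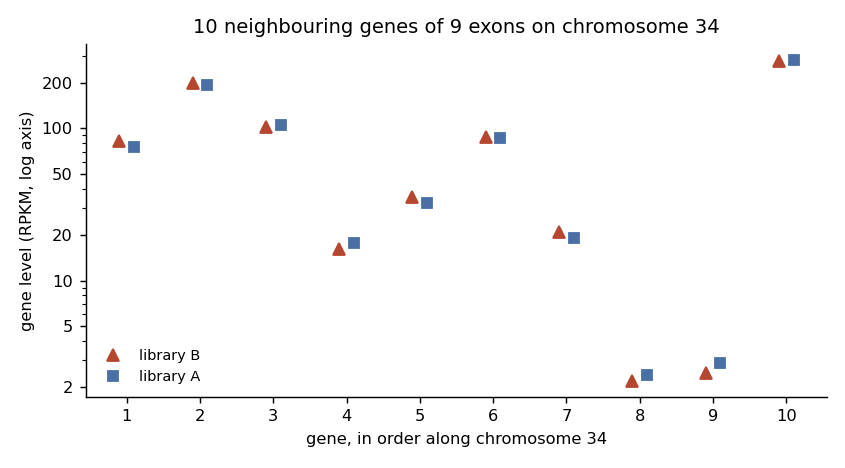
Gene level in RPKM (log axis) of the 10 neighbouring genes of 9 exons on chromosome 34, in order along the chromosome, with triangles for library B and squares for library A. Each gene has nearly the same level in both libraries, while levels run from 2.20 to 277 RPKM in library B between genes.

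Genes without reads were few. Of the 1423 genes 7 (0.492%) had 0 reads in both libraries, against 15 of 8941 (0.168%) on the larger autosomes and 0.272% of all genes. A count of 0 allows up to 3 counts, 0.0718 CPM in library B and 0.150 CPM in library A. Of these 7 genes 3 lay on chromosome 26 between 3183242 and 3281567, with 5 exons each, and were structural copies of each other. Multi-mapping reads were left uncounted, so the bound on counts need not hold for these 3. The other 4 were the last gene of chromosome 23, the last of chromosome 28 and the last 2 of chromosome 34. Chromosomes 17, 24, 27 and 29 had no gene without reads.

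The other small autosomes, with fewer than 10 genes per Mb, were unlike the set in level. Their 188 genes had a median of 2.91 RPKM (quartiles 0.730 and 9.07), and 70.7% had at least 1 RPKM, against 94.0% in the set. They held 18.6% of their ID numbers, against 63.3% in the set. Their mean introns, with a median of 968 bp, were longer than the 635 bp of the set and shorter than the 1722 bp of the autosomes of 10 Mb or more. The autosomes of 10 to 30 Mb lay between the set and the largest in intron length, at 1280 bp, and in genes per Mb, at 12.2. Their median level was 10.6 RPKM.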

How the data were processed

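Per the file headers, featureCounts 2.1.1 gave the deposited counts, summing reads over the exons of a gene with mates counted separately. The recorded command holds no option for strand or multi-mapping reads. The submitters' processing notes also list HISAT2 and SAMtools, with no version. The build's name is not given in the sources used here. The exon length of each gene was also deposited, in bp, beside the counts. Counts were scaled here with TMM factors of edgeR 4.0.16 (1.003 in library B, 0.997 in library A), with total counts and DESeq2 1.42.0 size factors as alternatives. Log2 ratios used a prior count of 2, for genes reaching 10 reads in 1 or both libraries. Introns are the gaps between exons. Windows of 1 Mb hold genes by midpoint. Intervals are 95% Clopper-Pearson or conditional binomial. Only the 2-fold rule and the shift of a chromosome class were tested on simulated data. These were Poisson counts with changes larger than the rule and the shift seen here. Level, intron, spacing and copy measures were not simulated. Medians were taken with Python 3.11.15 and pandas 2.3.3. The chromosomes, measures and lists were chosen with earlier results of these data known. Genes named by ID are the 2 with the largest ratio in each direction where the higher library had 100 reads or more. The most abundant genes (10 by reads, 1 per chromosome by RPKM), those with most exons and closest together, and those without reads are given by position, also by rule. The stretches on chromosomes 23, 28 and 34, stretches without a gene in the tables and chromosome ends were chosen after their values were seen. P-values were not computed.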

Additional observations from a re-analysis of the deposited data

How the results depend on the processing

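Of 127 alternatives 102 left a value within its interval (for medians the binomial interval of the median over genes) or a count within 1.5 times, 22 moved it and 3 reversed it. The interval of a median takes genes as independent, and for ratios it leaves out the spread of the larger autosomes, so it is no test. Density limits of 8 and 15 per Mb select the same 8 chromosomes and could not change a value. Total counts and DESeq2 size factors rescale both groups alike, so comparisons between the groups could hardly change. The 102 include these alternatives. Level relative to the autosomes of 10 Mb or more, 1.16, reversed to 0.817 as CPM per gene, which does not divide by exon length. It stayed within its interval under the other 19, which left out each of the 8 chromosomes in turn, among others, and include those that could not change it. Level relative to dense windows of those autosomes, 1.04, reversed to 0.974 with at least 15 genes per window. It reversed to 0.952 with 20, a limit added after seeing the data. The set was taken whole in these ratios. Its genes in windows with at least 20 genes had 11.3 RPKM, against 11.7 RPKM on those autosomes. The cause was not tested. Reads per Mb, 2.76 times over both libraries, have a very narrow counting interval. They were 3.04 without the 100 most abundant genes, 2.78 in library B alone, 2.74 in library A alone and 2.93 with spans from the first gene. Without chromosome 17, 23, 24, 26, 27, 28, 29 or 34 they were 2.83, 2.49, 2.90, 2.79, 2.87, 2.91, 2.69 and 2.63, and 2.40 without the most abundant gene of the set, also added after seeing the data. Exon number, 0.889, was 0.800 without single-exon genes and with at least 50 reads, because the median of the larger autosomes moved by 1 exon. Intron length, 0.369, was 0.408 over single introns and 0.423 with a span limit of 15 Mb. Spacing, 0.280, was 0.240 with a span limit of 8 Mb. The median log2 ratio was 0.046 with total counts, since 1 factor shifts all genes. Genes 2-fold higher in library B numbered 6, and 1 at 4-fold. Those higher in library A numbered 2, and 0 at 4-fold and 0 with at least 50 reads. All 16 alternatives for the genes named by ID stayed within their intervals and count among the 102. These intervals, by read pairs, are wide, and scaling or the prior count could hardly move a ratio out of them. No paired analysis was possible because there are only 2 libraries, with no replicate of either. Precision was lowest for weakly expressed genes: under 1 RPKM the scaled median absolute deviation of the log2 ratio was 0.54 in the set, against 0.07 at 50 RPKM or more.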

Other observations

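A long run of genes on 1 strand lay on chromosome 28, at 4955690 to 5437682, where 19 neighbouring genes were all on the plus strand. The longest such run on the autosomes of 10 Mb or more had 13 genes. Of the 19 genes 16 had 2 exons, and in 10 of these the single intron was within 10 bp of 375 bp. Their level was modest and uneven, with a median of 5.93 RPKM in library B and 6.87 RPKM in library A and a range over both of 0.239 to 23.2 RPKM. The genes starting at 5299801 and 5315829 had the same exon lengths, 27 and 790 bp, and the same intron of 109 bp, at 1.67 and 0.239 RPKM. The rule for structural copies needs at least 4 exons and could not mark such genes. Multi-mapping reads were left uncounted and sequence was not compared, so the levels in this run are uncertain. The tables lack 28 ID numbers inside the run. The files do not name these genes.

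Some long stretches of the set held no gene of the tables. Of 4 stretches of at least 1 Mb between neighbouring genes of the tables, the longest lay on chromosome 26 at 3305050 to 5742566. It made up 42.0% of the span of that chromosome, with 20 ID numbers missing. Chromosome 23 had one of 2.29 Mb, chromosome 17 one of 1.92 Mb, 49.2% of its span, and chromosome 28 one of 1.53 Mb. Such stretches made up 15.7% of the span in the set and 12.1% on the larger autosomes. With a limit of 0.2 Mb the order was the reverse, 25.1% in the set and 39.1% on the larger autosomes. Sequence before the first gene of a chromosome was left out of these values in both groups. On chromosome 27 the first gene starts at 2642700, so the stretch before it is longer than the one on chromosome 26. Density per Mb thus averages over packed sequence and sequence without a gene in the tables. The first 3 Mb of chromosome 26 had 73, 59 and 70 genes.

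The last genes of the 8 chromosomes had low levels and the first ones did not. The last 3 genes of each, 24 in all, had a median of 2.21 RPKM, with 10 under 1 RPKM and 4 without reads. The first 3 had 19.8 RPKM and none was under 1 RPKM, and genes further inside had 11.2 RPKM. On the larger autosomes the last 3 and the first 3 had 5.28 and 4.85 RPKM, against 9.64 RPKM inside. Which end of a sequence comes first is arbitrary, and the last gene in the table need not lie near the end of the chromosome.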
